A study of Homo sapiens with 12 samples.

Results

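The androgen-responsive genes outside the kallikrein family that are described here are 36 Ensembl gene IDs of a list, paired with their symbols in the list itself, and all 36 occur among the 18569 gene IDs of the data. They hold 2763 of the 842183 positions measured. LNCaP-AI cells, a castration-resistant prostate cancer line derived from LNCaP, were kept under androgen deprivation. They stably expressed shscramble, the non-targeting control, or shMETTL1, which silences the m7G methyltransferase METTL1. Each group had 3 replicates, and internal m7G of mRNA was mapped by AlkAniline-Seq in every replicate beside an input library, giving 12 libraries. AlkAniline-Seq breaks the RNA chain at m7G by chemical treatment and sequences the resulting ends, which places reads at single positions, whereas the input shows the reads obtained at the same positions without that selection. Every group shared the androgen deprivation, so the comparison concerns METTL1 and not the hormone. Other constructs, clones and androgen-treated cells were not analysed here. METTL1 itself could not be looked up, because no table used here pairs the other gene IDs with symbols, and for the same reason the other genes of the androgen receptor pathway and the markers of basal, stromal, immune and neuroendocrine cells were not examined.

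The androgen receptor is a nuclear receptor that, once bound by testosterone or dihydrotestosterone, enters the nucleus and binds inverted repeats of a short DNA element beside the genes it controls. In prostate luminal cells its targets include secreted enzymes, membrane transporters, enzymes of lipid and sugar metabolism, and proteins that feed back on the receptor or on growth factor signals. Castration-resistant tumours grow at low androgen levels, often with part of this programme still active, which is why its members are used as a readout of receptor activity.

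The DNA element gives a way to set the members side by side. RefSeq promoters of build GRCh38.p14, from 250 bases before to 50 after a gene's start, were found for 25 of the 36 members, ACPP being listed there as ACP3. The full inverted repeat, AGAACA and TGTTCT with any 3 bases between them, which is the same on both strands, was in 0 of these 25 and in 1 of all 35116 promoters of the table (0.00285%). A single arm, AGAACA or its reverse complement TGTTCT, was in the promoters of 4 of the 25 members, 16.0%, against 17.5% of the 27305 genes of the table and 14.8% of all its promoters. The 5 matches are shown because they are the only ones in the list. Each is printed with its flanks on the gene's own strand, with the arm in capitals, and the windows lie at chr2:233979971-233980000 (plus strand) for TRPM8, chr6:35728566-35728595 (minus strand) for FKBP5, chr6:134177839-134177868 (minus strand) for SGK1, and chr20:57711433-57711462 and chr20:57710789-57710818 (both minus strand) for PMEPA1.
TRPM8: gacatgaagagcAGAACAgccagtgtgcta
FKBP5: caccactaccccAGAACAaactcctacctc
SGK1: ggggttcataacAGAACAgggatagccgtc
PMEPA1, first: cttgacttctccAGAACAagcctcctggtc
PMEPA1, second: acctgaagaatgTGTTCTtgtagcactcct
These letters describe the windows and say nothing of binding. The androgen receptor is known to act largely from distant enhancers, which the windows do not cover. In the main setting of the 6 gene tests that follow, 0 of the 4 genes that carry a match had an adjusted p below 0.05. The same held for 0 of all tested members, beside 0.0% to 0.637% of genes, depending on the test. TRPM8 was not tested in AlkAniline-Seq, and TRPM8, SGK1 and PMEPA1 were not tested for the percent of coverage.

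The read counts at all positions summed to 1421551 to 2764417 in the AlkAniline-Seq libraries and to 2783709 to 3258499 in the input libraries. The members took 0.236% to 0.320% of the AlkAniline-Seq reads and 0.228% to 0.313% of the input reads, which is 3647 to 8028 and 6336 to 9627 reads per library. Such counts carry counting error of their own, and reads without molecular identifiers are not independent molecules. Of the 7 members that mark prostate luminal cells (TMPRSS2, SLC45A3, ACPP, FOLH1, STEAP2, TRPM8 and AZGP1), all 7 had reads in 5 of the 6 input libraries, and AZGP1 alone was at 0 in shscramble input replicate 2. Their summed input level was 649 to 955 CPM (counts scaled to library size) in shscramble and 688 to 789 CPM in shMETTL1. FOLH1 alone made up 415 to 555 CPM of this sum in the input libraries. TMPRSS2 added 462 CPM in shscramble input replicate 2, the library with the highest sum.

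A pair of libraries stood apart. Shscramble replicate 1 had a read at all 59 member positions where shscramble replicate 2 had 50 or more reads and at all 21 where replicate 3 had as many. Between other pairs of AlkAniline-Seq libraries this share was 19.0% to 61.1%. Over all genes it was 99.9% and 100%, against 31.1% to 63.4% between other pairs, so it was not particular to the members. The reason was not tested, and the shscramble libraries may not be independent of each other. Shscramble input replicate 2 had the fewest positions with a read (72098, against 154432 to 311979 in the others) and the lowest TMM scaling factor of all libraries, 0.665. The edgeR estimate of the coefficient of variation between replicates was 0.899 in AlkAniline-Seq and 0.806 in the input.

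In AlkAniline-Seq, STEAP2 had the clearest difference between shMETTL1 and shscramble, and the other members lay on both sides of 0 with errors as large as their differences or larger in most cases. After the filter on low counts, 29 of the 36 members were tested in AlkAniline-Seq, and 0 of them had an adjusted p below 0.05 in edgeR's quasi-likelihood test, where 1 of 11097 genes did (0.00901%). At an unadjusted p below 0.05, 1 member was higher in shMETTL1 and 0 were lower, beside 3.84% of all tested genes higher and 3.14% lower. DESeq2 gave 3 members at an unadjusted p below 0.05 (STEAP2 and AZGP1 higher, IGF1R lower), beside 6.27% of genes higher and 4.49% lower in that tool, and 1 at an adjusted p below 0.05 (STEAP2), beside 175 genes or 1.67%. The median log2 fold change of the tested members was 0.06, beside 0.07 over all genes tested, with 15 members above 0 and 14 below. In bulk RNA, fewer cells of a type and less RNA per cell cannot be told apart. The labels do not say whether replicates came from separate cultures, so p-values measure the spread between these samples, which may be technical, although the methods state in general terms that data came from biological replicates.

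**Figure D1:**
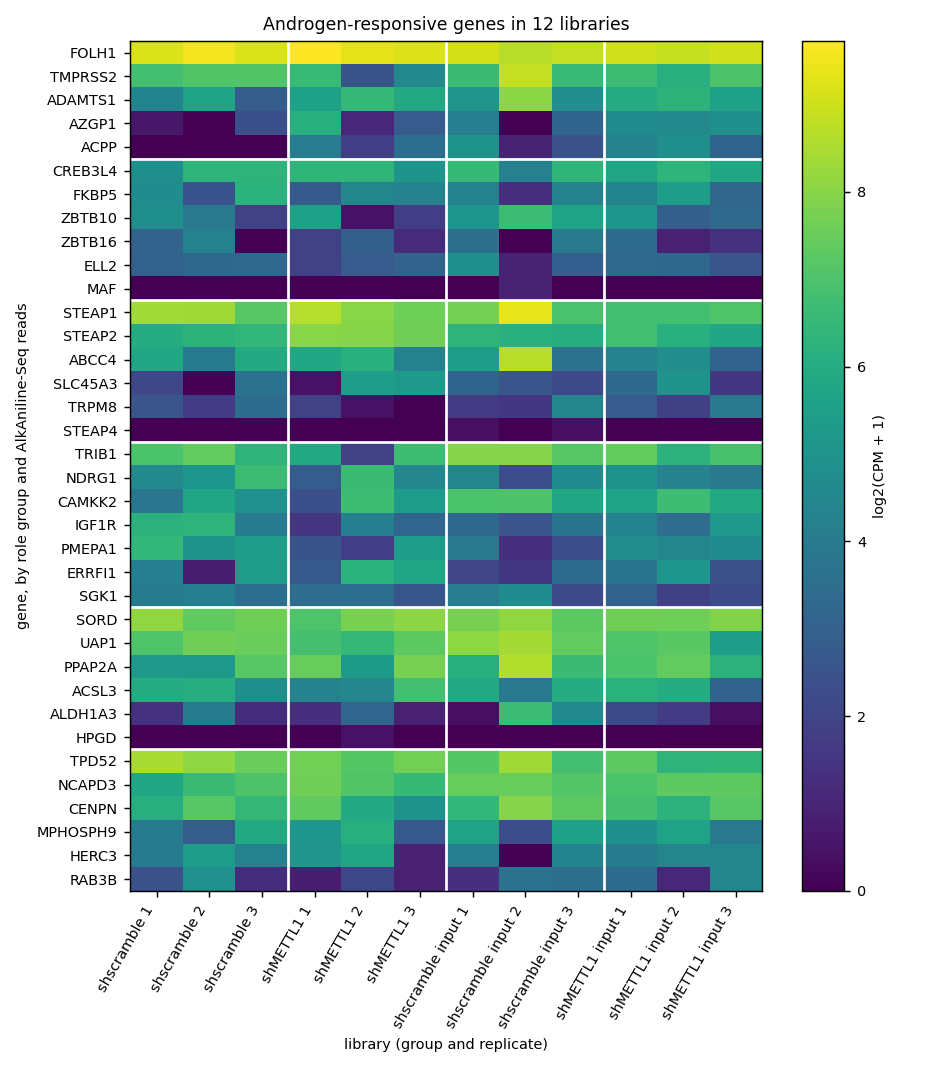
Heat map of log2(CPM + 1) of the 36 members (rows, by role group and then by AlkAniline-Seq reads) in the 12 libraries (columns). FOLH1 is bright in every library, MAF, STEAP4 and HPGD are dark throughout, and shscramble input replicate 2 is brighter than the other inputs for STEAP1, ABCC4 and TMPRSS2.

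The transporters, channels and metalloreductases held the clearest difference. STEAP2 (ENSG00000157214), a metalloreductase of the prostate cell membrane that reduces iron and copper, had 118, 211 and 122 AlkAniline-Seq reads in shscramble replicates 1 to 3 and 658, 618 and 464 in shMETTL1 replicates 1 to 3. Scaled to library size, that was 75.7 ± 11 CPM in shscramble and 232 ± 32.2 CPM in shMETTL1 (SD, n = 3 each). The lowest shMETTL1 library lay above the highest shscramble library. The log2 fold change was 1.61 ± 0.47 (SE), with an unadjusted p of 0.00318 and an adjusted p of 0.466 in edgeR. DESeq2 gave an adjusted p of 0.0294, and over the 12 alternatives the adjusted p lay between 0.0294 and 0.95. An unadjusted p below 0.05 was kept in all 12 alternatives, including those without shscramble replicate 1 (log2 fold change 1.5) and without the deepest position of each gene (1.65). Its input reads numbered 249, 144 and 215 in shscramble, against 422, 231 and 168 in shMETTL1, which overlap, with a log2 fold change of 0.10 ± 0.64.

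STEAP1 (ENSG00000164647), a cell-surface relative of STEAP2 and a target of prostate cancer antibodies, had 618, 872 and 210 AlkAniline-Seq reads in shscramble and 1051, 644 and 458 in shMETTL1. The groups overlap, and the log2 fold change was 0.09 ± 0.42. Its input reads, in contrast, numbered 664, 1338 and 392 in shscramble, against 429, 371 and 399 in shMETTL1, giving a log2 fold change of -1.49 ± 0.54 (edgeR, unadjusted p = 0.0135, adjusted p = 0.765). Without shscramble replicate 2 that value was -0.50 and its unadjusted p 0.17. STEAP4, the third reductase of the family, had 0 AlkAniline-Seq reads in all 6 libraries and 2 input reads in all.

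ABCC4 (ENSG00000125257), an exporter of cyclic nucleotides and prostaglandins, had 103, 41 and 87 AlkAniline-Seq reads in shscramble and 141, 178 and 44 in shMETTL1, which overlap (log2 fold change 0.13 ± 1.01). In the input it had 131, 832 and 37 reads in shscramble and 73, 94 and 23 in shMETTL1. The log2 fold change there was -3.09 ± 1.02, with an unadjusted p of 0.0078 and an adjusted p of 0.757 in edgeR. This value rested on shscramble replicate 2, the library with 832 reads, without which it was -0.55 (unadjusted p = 0.54). A single position held 575 of those 832 reads. SLC45A3, a sugar transporter known as prostein, had 0 to 17 AlkAniline-Seq reads in shscramble and 1 to 103 in shMETTL1, and TRPM8, the cold- and menthol-gated channel, had 0 to 14 in all libraries and was not tested there.

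**Figure D2:**
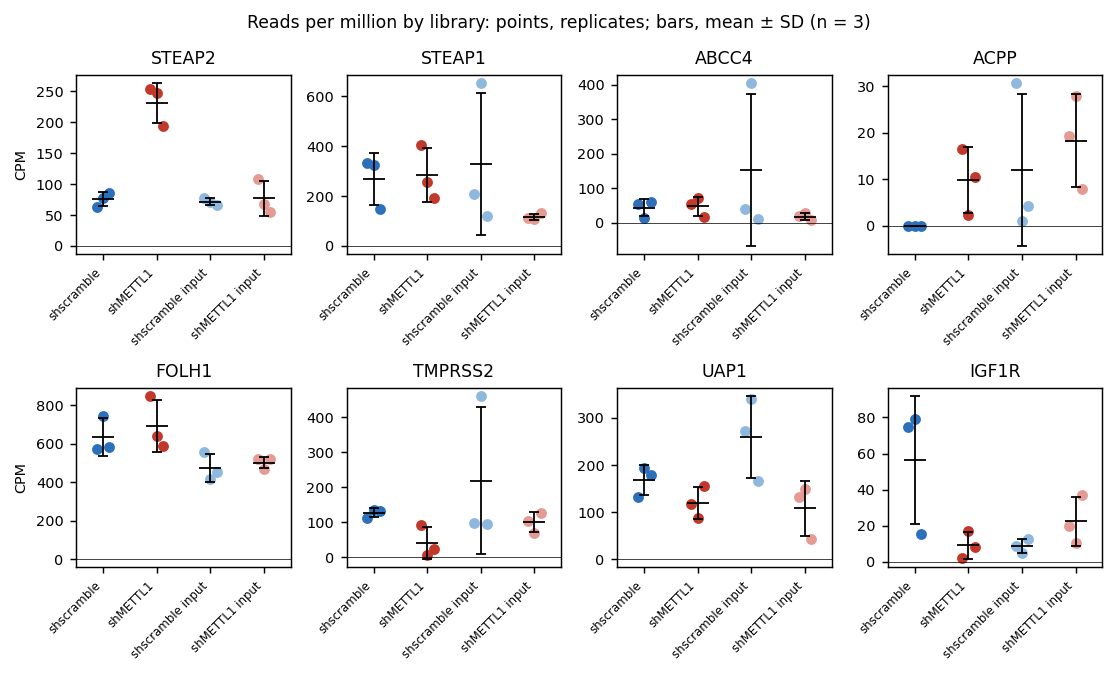
CPM of 8 members in each library, by group (horizontal axis) and assay, with points for replicates and bars for the mean ± SD (n = 3). For STEAP2 the shMETTL1 points lie above all other groups, while the high shscramble input point in STEAP1, ABCC4 and TMPRSS2 is replicate 2 in each.

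Among the secreted and cell-surface proteins, FOLH1 (ENSG00000086205), prostate-specific membrane antigen and a folate and glutamate carboxypeptidase, had the most reads, a count that does not allow for gene length. It had 1057, 2016 and 835 AlkAniline-Seq reads in shscramble and 2204, 1598 and 1403 in shMETTL1. That was 633 ± 97.4 and 692 ± 137 CPM (SD, n = 3 each), and its log2 fold change was 0.13 ± 0.28 in AlkAniline-Seq and 0.08 ± 0.32 in the input, with unadjusted p values of 0.66 and 0.798. Its AlkAniline-Seq SE was the smallest of the tested members.

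TMPRSS2 (ENSG00000184012), the serine protease whose promoter is fused to ERG in many prostate cancers, had 208, 364 and 191 AlkAniline-Seq reads in shscramble and 242, 12 and 55 in shMETTL1. In CPM the groups did not overlap, at 127 ± 12.5 in shscramble and 40.3 ± 46.6 in shMETTL1, but the shMETTL1 libraries were far apart from each other. The log2 fold change was -1.65 ± 0.86, with an unadjusted p of 0.073 and an adjusted p of 0.769 in edgeR. Without shMETTL1 replicate 1 it was -3.16 (unadjusted p = 0.0047), and without any other single replicate it lay between -1.74 and -1.11, with unadjusted p values of 0.11 to 0.171. Input reads of TMPRSS2 numbered 312, 945 and 309 in shscramble, against 399, 238 and 387 in shMETTL1, and its input log2 fold change was -1.13 ± 0.60 (unadjusted p = 0.0773). Without shscramble replicate 2, whose input library held the 945 reads, it was 0.04 (unadjusted p = 0.918).

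ACPP (ENSG00000014257), prostatic acid phosphatase, had 0 AlkAniline-Seq reads in each of the 3 shscramble libraries and 43, 6 and 25 in shMETTL1. It was below the filter of the AlkAniline-Seq test. Against a chosen floor of 3 reads per library, its AlkAniline-Seq count was at least 6.10-fold higher in shMETTL1, and at least 4.01-fold without shMETTL1 replicate 1. The shMETTL1 mean was 9.81 ± 7.09 CPM (SD, n = 3). These bounds depend on the floor and leave out counting error. Its AlkAniline-Seq coverage was 21, 2 and 116 in shscramble and 59, 10 and 26 in shMETTL1, so shscramble libraries did hold reads over its positions. In the input it had 98, 2 and 14 reads in shscramble and 75, 96 and 24 in shMETTL1, so reads of the transcript were present in control cells. At the deepest of its 7 read positions, shMETTL1 replicate 1 held 42 of 43 reads. AZGP1, a secreted zinc-binding glycoprotein, had 1, 0 and 6 AlkAniline-Seq reads in shscramble and 180, 3 and 14 in shMETTL1 (log2 fold change 4.04 ± 1.93, unadjusted p = 0.0527), and ADAMTS1, a secreted metalloprotease, had 37, 137 and 9 against 121, 219 and 139 (1.32 ± 1.04, unadjusted p = 0.225).

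Among the metabolic enzymes the groups overlapped in AlkAniline-Seq, where 1 of the 4 tested lay above 0 and 3 below. SORD (ENSG00000140263), sorbitol dehydrogenase, had 516, 441 and 279 AlkAniline-Seq reads in shscramble and 343, 540 and 629 in shMETTL1, with a log2 fold change of -0.06 ± 0.43. UAP1 (ENSG00000117143), which makes UDP-N-acetylglucosamine for protein glycosylation, had 246, 523 and 257 reads in shscramble and 303, 221 and 372 in shMETTL1. In AlkAniline-Seq the UAP1 groups overlap (-0.49 ± 0.49). In the input they did not, with 866, 695 and 541 reads in shscramble and 512, 516 and 128 in shMETTL1, with a log2 fold change of -1.26 ± 0.52 (edgeR, unadjusted p = 0.0263, adjusted p = 0.765). It was -0.89 (unadjusted p = 0.138) without shMETTL1 replicate 3, the library with 128 reads.

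PPAP2A (ENSG00000067113), a lipid phosphate phosphatase that removes phosphate from lysophosphatidic acid, had 69, 97 and 208 AlkAniline-Seq reads in shscramble and 452, 97 and 500 in shMETTL1. Shscramble replicate 3 and shMETTL1 replicate 2 overlap the other group, and the log2 fold change was 0.96 ± 0.73 (edgeR, unadjusted p = 0.211). Without a single replicate it ran from 0.57 (unadjusted p = 0.518, without shMETTL1 replicate 3) to 1.98 (unadjusted p = 0.0293, without shscramble replicate 3). ALDH1A3 (ENSG00000184254), a retinaldehyde dehydrogenase, was too low for the AlkAniline-Seq test, with 3, 41 and 2 reads in shscramble and 4, 20 and 2 in shMETTL1. Its input reads numbered 1, 206 and 74 in shscramble, against 14, 8 and 1 in shMETTL1, with a log2 fold change of -4.26 ± 1.59 (unadjusted p = 0.0161) that was -2.46 (unadjusted p = 0.13) without shscramble replicate 2. ACSL3, which activates long-chain fatty acids, had an AlkAniline-Seq log2 fold change of -0.01 ± 0.98, and HPGD, which inactivates prostaglandins, had 1 AlkAniline-Seq read in all.

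Of the 7 signalling proteins, 2 lay above 0 and 5 below in AlkAniline-Seq. IGF1R (ENSG00000140443), the receptor of insulin-like growth factors, had 138, 214 and 22 AlkAniline-Seq reads in shscramble and 5, 43 and 19 in shMETTL1. Shscramble replicate 3 lies within the range of the shMETTL1 libraries, and the log2 fold change was -2.64 ± 1.30 (edgeR, unadjusted p = 0.0591, adjusted p = 0.741). Its input value had the opposite sign, at 28, 10 and 40 reads in shscramble and 78, 35 and 112 in shMETTL1. In CPM these groups overlap, and the log2 fold change was 1.35 ± 1.16 (edgeR, unadjusted p = 0.258, adjusted p = 0.887). TRIB1 (ENSG00000173334), a pseudokinase that brings transcription factors to a ubiquitin ligase, had 230, 457 and 114 AlkAniline-Seq reads in shscramble and 153, 7 and 245 in shMETTL1 (log2 fold change -1.18 ± 0.88).

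NDRG1 (ENSG00000104419), a protein induced by hypoxia and by androgens that restrains metastasis, had 42, 90 and 143 AlkAniline-Seq reads in shscramble and 16, 247 and 51 in shMETTL1. The groups overlap, with a log2 fold change of -0.30 ± 1.11 in AlkAniline-Seq and 0.30 ± 1.13 in the input. PMEPA1, an inhibitor of TGF-beta and androgen receptor signalling, had 161, 83 and 61 reads in shscramble and 12, 6 and 95 in shMETTL1 (-1.77 ± 1.29, unadjusted p = 0.188). CAMKK2, which phosphorylates AMPK, SGK1, a kinase of ion transport, and ERRFI1, an inhibitor of the EGF receptor, had AlkAniline-Seq log2 fold changes of 0.65, -0.74 and 1.16, each with an SE above 1.

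The regulators of transcription and the receptor's co-chaperone also overlapped between groups. FKBP5 (ENSG00000096060), an HSP90 co-chaperone of steroid receptors and a standard androgen target, had 47, 12 and 106 AlkAniline-Seq reads in shscramble and 15, 51 and 45 in shMETTL1. Its log2 fold change was -1.20 ± 1.38, and without shscramble replicate 3 it was 0.05. CREB3L4 (ENSG00000143578), a membrane-bound bZIP factor of the prostate, had 51, 217 and 113 AlkAniline-Seq reads in shscramble and 213, 203 and 76 in shMETTL1, with a log2 fold change of 0.06 ± 0.82. ELL2, an elongation factor of RNA polymerase II, and the zinc finger repressors ZBTB10 and ZBTB16 had AlkAniline-Seq log2 fold changes of -0.59, 0.08 and -1.26, and MAF, a bZIP factor, had 0 AlkAniline-Seq reads.

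In the last group, TPD52 (ENSG00000076554), an amplified gene of prostate cancer that takes part in vesicle trafficking, had 661, 741 and 258 AlkAniline-Seq reads in shscramble and 527, 360 and 480 in shMETTL1. The log2 fold change was -0.57 ± 0.41 in AlkAniline-Seq and -0.87 ± 0.53 in the input. NCAPD3, a condensin subunit, and CENPN, a kinetochore protein, had AlkAniline-Seq log2 fold changes of 0.59 ± 0.57 and -0.28 ± 0.70. HERC3, a ubiquitin ligase, and MPHOSPH9, a centriole protein, were at 0.23 ± 1.39 and 0.40 ± 1.30, and RAB3B, a GTPase of secretory vesicles, was below the filter.

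**Figure D3:**
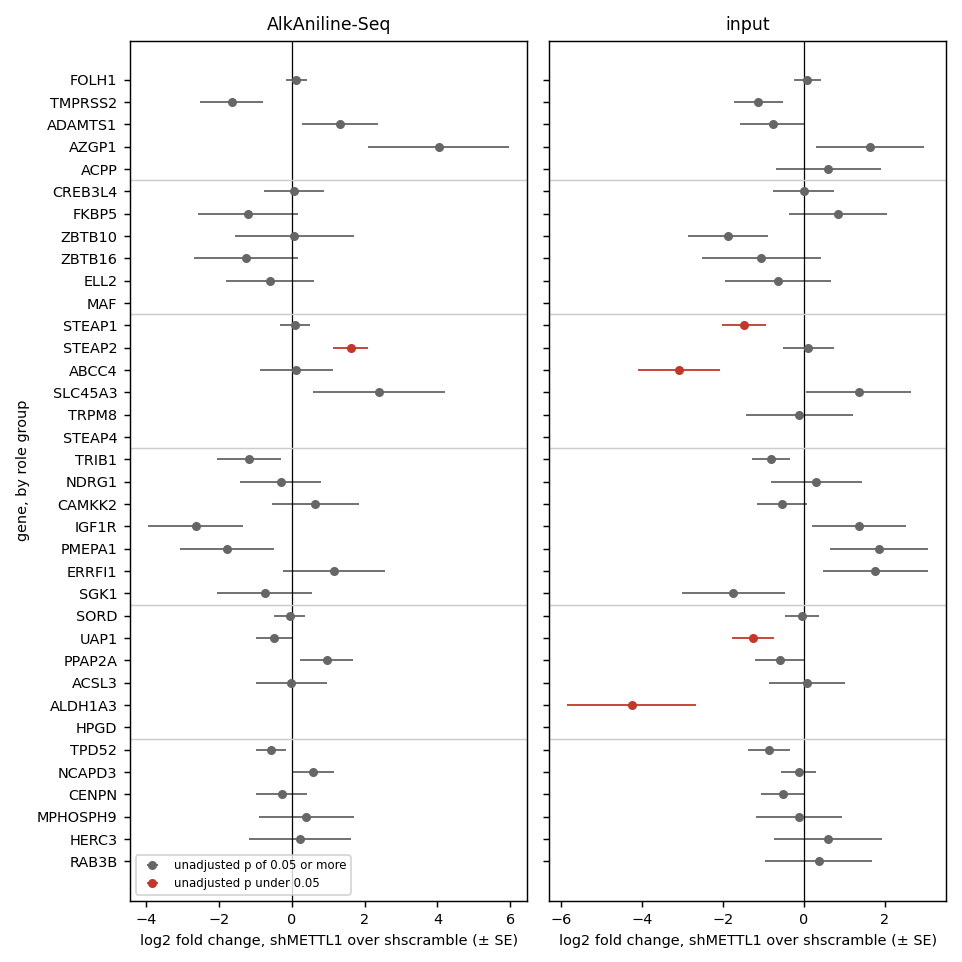
Log2 fold change of shMETTL1 over shscramble (horizontal axis, bars are SE) for each member in AlkAniline-Seq (left) and input (right), with genes below the filter left blank. STEAP2 is the single member with an unadjusted p below 0.05 on the left (red), and ABCC4, ALDH1A3, STEAP1 and UAP1 are the 4 on the right, all below 0.

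The groups were also compared by overlap. In AlkAniline-Seq, the CPM of 1 of 29 members (STEAP2) was higher in every shMETTL1 library and that of 2 (SGK1 and TMPRSS2) was lower in every one, beside 7.09% and 7.36% of all tested genes. In the input, AZGP1 and PMEPA1 were higher and UAP1 was lower in every shMETTL1 library, 2 and 1 of 33 members, beside 7.61% and 5.84% of all tested genes. With 3 libraries against 3, an exact permutation test of a single gene cannot give a p below 0.1.

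Input counts are reads at the listed positions and need not follow the amount of a transcript. For STEAP1 the high shscramble replicate 2 was not seen in input coverage (14718, 13202 and 14077), and for ABCC4 it was (685, 4486 and 363). In the test of input reads, 0 of 33 members had an adjusted p below 0.05 in edgeR, as for 0.0% of 11740 genes. At an unadjusted p below 0.05, 0 members were higher and 4 were lower in shMETTL1 (ABCC4, ALDH1A3, STEAP1 and UAP1), beside 1.64% of genes higher and 4.62% lower, and DESeq2 gave 0 higher and 6 lower, beside 3.19% and 7.37% of genes in that tool. The median log2 fold change of the members was -0.13, beside -0.04 over all genes, with 13 members above 0 and 20 below. Without shscramble replicate 2, whose input library stood apart, 1 of the 4 stayed below an unadjusted p of 0.05 (UAP1). UAP1 was above it without shscramble replicate 1 (unadjusted p = 0.0533) and without shMETTL1 replicate 3, and ALDH1A3 was also above it without the latter.

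Whether the difference in AlkAniline-Seq exceeded that in the input was examined with an interaction term fitted to all 12 libraries. There, 0 of 33 members had an adjusted p below 0.05 in edgeR, beside 0.00777% of 12877 genes. At an unadjusted p below 0.05, ABCC4, ACPP, STEAP1 and STEAP2 were higher over input in shMETTL1 and IGF1R was lower, 4 and 1 members, beside 5.3% and 3.04% of all genes. The interaction was 3.41 ± 1.42 (log2) for ABCC4, 1.75 ± 0.76 for STEAP1, 1.65 ± 0.74 for STEAP2 and -3.87 ± 1.67 for IGF1R, with edgeR adjusted p values of 0.532, 0.544, 0.565 and 0.544. For ACPP, whose shscramble AlkAniline-Seq reads were all 0, the fit gave an unadjusted p of 0.0113 and an adjusted p of 0.524, and a floor of 3 reads per library put the interaction at 4.0-fold or more. That bound rested on shscramble replicate 1, which held 98 of the 114 shscramble input reads of ACPP, and without it the floor gave no bound above 1. Without shscramble replicate 1 the 5 members became 2 (ABCC4 and STEAP1), and without shscramble replicate 2 they became 2 others (ACPP and STEAP2), with ABCC4 at 0.38 and STEAP1 at 0.84. Over the 6 fits that each left out 1 replicate, ACPP was below an unadjusted p of 0.05 in 5, ABCC4 in 4, STEAP1 in 3, and STEAP2 and IGF1R in 2 each. This model did not tie each AlkAniline-Seq library to the input of the same sample. With the sample as a block, ACPP and STEAP1 were higher and PMEPA1 was lower at an unadjusted p below 0.05, while ABCC4 was at 1.69 (unadjusted p = 0.29), STEAP2 at 1.70 (0.0617) and IGF1R at -4.05 (0.0746).

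These counts moved with the scaling. Scaling by library size alone, in place of TMM, shifted the median log2 interaction of all genes from 0.24 to -0.28 and that of the members from 0.42 to -0.19, so relative to all genes the members stood 0.18 and 0.08 higher. The share of higher calls among all genes at an unadjusted p below 0.05 went from 63.5% to 32.2%, and the members went from 4 higher and 1 lower to 1 higher (ACPP) and 2 lower (IGF1R and PMEPA1). In the input the median of all genes moved from -0.04 to 0.22 and the share of higher calls from 26.3% to 61.9%, while the members stayed at 0 higher, with 3 lower in place of 4. In AlkAniline-Seq the share of higher calls went from 55.0% to 44.4%, and the members from 1 higher and 0 lower to 1 and 1.

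Within each group, AlkAniline-Seq was also set against its own input. In shscramble, 0 of 33 members had an adjusted p below 0.05 in edgeR, beside 0.637% of genes, and DESeq2 called ACPP alone (adjusted p = 0.00583), beside 4.79% of genes in that tool. At an unadjusted p below 0.05, PMEPA1 was above its input and ACPP, ADAMTS1, CAMKK2 and PPAP2A were below, 1 and 4 members, beside 4.32% and 8.86% of genes. PMEPA1, ADAMTS1 and CAMKK2 fall outside the rule for named genes and were chosen after their values were seen, at log2 differences of 2.81 ± 1.28, -2.32 ± 0.93 and -1.95 ± 0.91, and PPAP2A was at -1.60 ± 0.75. ACPP was at least 7.48-fold below its input against the floor of 3 reads, and at least 1.65-fold without shscramble replicate 1. The members' median was -0.45, the same with ACPP at its bound, beside -0.08 over all genes, with 9 members above 0 and 24 below. With library size alone those medians were 0.01 and 0.30, the share of higher calls among all genes was 62.0% in place of 32.8%, and the members had 2 higher and 1 lower. Without shscramble replicate 1, 0 members were above and 2 below (ACPP and ADAMTS1), and without shscramble replicate 2 also 0 were above and 2 below (ACPP and CAMKK2). Without shscramble replicate 3, IGF1R was above and 6 were below, ACPP, ADAMTS1 and PPAP2A among them.

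In shMETTL1, 0 of 33 members had an adjusted p below 0.05 in edgeR, beside 0.21% of genes. STEAP1 and STEAP2 were above their input at an unadjusted p below 0.05, at log2 differences of 1.21 ± 0.54 and 1.52 ± 0.53, and 0 members were below, beside 3.53% and 4.74% of all genes. The members' median was -0.04, beside 0.17 over all genes, with 15 above 0 and 18 below. Without shMETTL1 replicate 2 neither was below an unadjusted p of 0.05, of the pair STEAP2 was without replicate 1, and STEAP1 without replicate 3. By role, 4 of the 5 transporters and reductases and 4 of the 5 metabolic enzymes lay above 0 in shMETTL1, and 0 of 5 of each in shscramble, beside 56.5% and 47.9% of all genes. The metabolic enzymes' median in shMETTL1 was 0.08, below that of all genes. In the other role groups the number of members above 0 did not rise. In shMETTL1 and shscramble, 1 and 1 of 5 secreted proteins and 0 and 1 of 5 transcription regulators lay above 0. So did 3 and 4 of 7 signalling proteins, and 3 and 3 of 6 in the last group. Their medians did not all follow these counts. In shMETTL1 and shscramble they were -0.07 and -2.32 for the secreted proteins and -0.22 and -0.22 for the transcription regulators. For the signalling proteins they were -0.61 and 1.43, and for the last group 0.002 and -0.10.

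**Figure D4:**
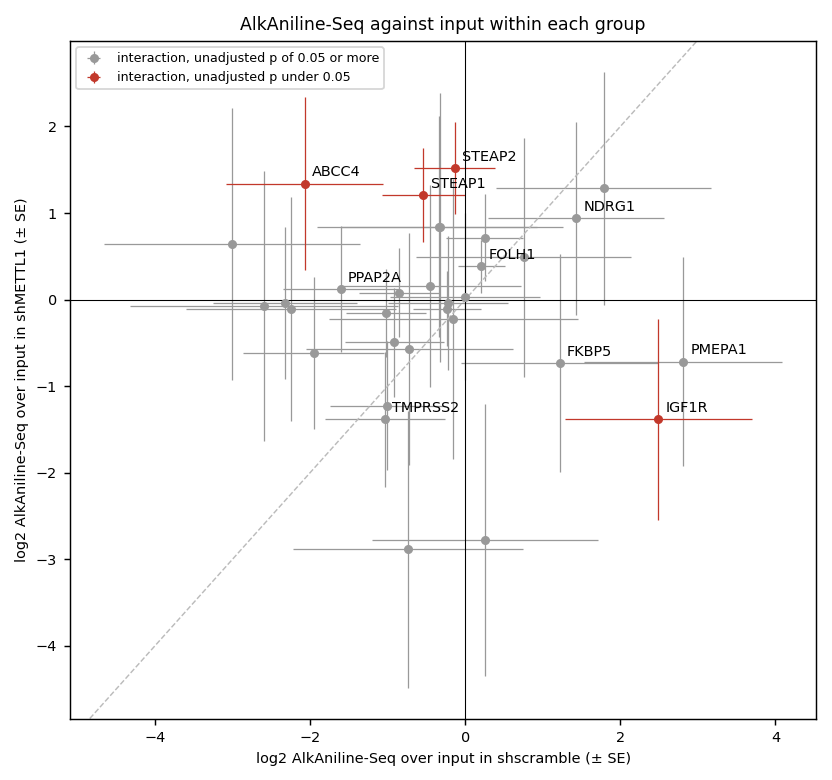
Log2 difference of AlkAniline-Seq from input in shscramble (horizontal axis) and in shMETTL1 (vertical axis) for 32 members, bars being SE, with equality on the dashed line. ABCC4, STEAP1 and STEAP2 lie above the line and IGF1R below it (red, interaction at an unadjusted p below 0.05), and ACPP is left out because its shscramble reads were all 0.

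A count relative to the reads that cover the same positions is less tied to the amount of RNA. Summed over a gene, the count as a percent of coverage could be tested for 19 members with a coverage of 100 or more in each AlkAniline-Seq library. For STEAP2 it was 4.67%, 8.10% and 7.65% in shscramble and 12.3%, 13.5% and 23.1% in shMETTL1, so that the groups did not overlap. In the input it was 4.76% to 5.36% and 4.83% to 5.90%. In limma on the log2 scale with 0.1 added to the percent, the STEAP2 difference was 1.23 ± 0.44, with an unadjusted p of 0.0303 and an adjusted p of 0.787. It was 0.98 (unadjusted p = 0.109) without shscramble replicate 1, 1.33 (0.0514) without shscramble replicate 3 and 0.95 (0.084) without shMETTL1 replicate 3.

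STEAP2 was the 1 of 19 members that was higher at an unadjusted p below 0.05 and 0 were lower, beside 2.56% and 3.54% of 6364 genes, and 0 members had an adjusted p below 0.05, as for 0.0% of genes. The median difference of the members was 0.09, beside -0.12 over all genes. By overlap, 2 of the 19 members were higher in every shMETTL1 library (STEAP2 and CREB3L4) and 1 was lower in every one (TMPRSS2), beside 4.68% and 7.94% of all genes tested. CREB3L4 was at 10.1%, 12.1% and 11.2% of coverage in shscramble and 28.7%, 19.4% and 15.5% in shMETTL1 (difference 0.88 ± 0.39, unadjusted p = 0.0619). TMPRSS2 was at 22.2%, 26.4% and 19.7% of coverage in shscramble and 17.7%, 1.29% and 14.1% in shMETTL1, with a difference of -1.68 ± 1.0 and an unadjusted p of 0.142.

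At single positions the members were sparse. Of 2763 positions listed, 1362 had an AlkAniline-Seq read in any library, 285 of them in both groups, 543 in shscramble alone and 534 in shMETTL1 alone. A single library held the reads of 61.1% of the read member positions, beside 62.9% over all genes, and 18 member positions were read in all 6 libraries. For the 16 members named by rule, the deepest position had over 90% of its reads in 1 library in 6 cases, and was read in all 6 libraries in 5 cases.

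The 5 were positions of FOLH1, SORD, STEAP1, TMPRSS2 and UAP1. The FOLH1 position had 51, 138 and 13 reads in shscramble and 181, 27 and 95 in shMETTL1. The STEAP1 position had 68, 68 and 8 against 212, 4 and 101, and the UAP1 position 47, 112 and 17 against 84, 13 and 72. The deepest TMPRSS2 position had 53, 122 and 43 reads in shscramble and 1, 3 and 26 in shMETTL1, with input reads of 36, 292 and 20 against 4, 0 and 1. This TMPRSS2 position therefore had fewer reads in shMETTL1 in both assays.

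Most of the STEAP2 positions with a read had it in 1 library alone, and some were shared. Of its 140 positions, 78 had an AlkAniline-Seq read, 24, 14 and 12 of them in the shscramble libraries and 30, 19 and 17 in the shMETTL1 libraries, 52 were read in 1 library alone, 10 were read in both groups and 0 in all 6. Among its 20 deepest positions, 17 were deepest in a shMETTL1 library and 3 in a shscramble library, and 14 had over 90% of their reads in 1 library. The deepest had 0, 0 and 0 reads in shscramble and 0, 141 and 1 in shMETTL1.

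**Figure D5:**
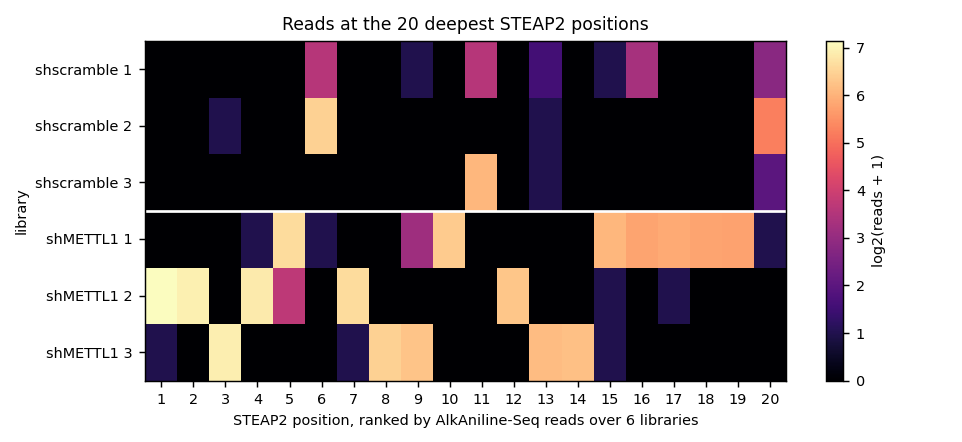
AlkAniline-Seq reads, as log2(reads + 1), at the 20 deepest STEAP2 positions (columns, ranked by reads over the 6 libraries) in each library (rows). 17 of the 20 columns are brightest in a shMETTL1 row, and 14 hold over 90% of their reads in 1 row.

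Single positions were screened on the deposited fold over input, with a ratio of group means above 1.5 (or, where 1 mean was 0, the other mean plus 1) and an unadjusted p below 0.05 in the methods' t-test. A figure legend of the paper gives limits of this kind for genes altered in mRNA and in m7G. It does not say to which values or with which test they were applied. Here 19 member positions in 15 members passed. Of the 1362 read member positions 2 were higher (0.147%) and 17 lower (1.25%) in shMETTL1, beside 0.203% and 1.05% of the 404685 positions read over all genes. Of the 17 lower positions, 13 had a shscramble library with 1 read or fewer, and 0 of the 19 had 10 or more reads in each library of the higher group. At 15 of the 19 the fold was the same in every library of 1 group or of both. Of these, 14 had a fold of 0 in every shMETTL1 library. At 5 it was the same within each group, which leaves the test no spread. At those 5, every shscramble library had a fold of 2 and its input had 0 reads. Without input reads the deposited fold is the fraction plus 1, which is at most 2 and is not a ratio to the input. The higher positions lay in TMPRSS2 and PPAP2A. The PPAP2A position had 0, 0 and 0 reads in shscramble and 131, 1 and 86 in shMETTL1, where its coverage was 205, 1 and 93. The TMPRSS2 position had 4, 1 and 0 against 87, 2 and 17 reads, with folds over input of 0.85, 0.08 and 0 against 1.67, 2.17 and 1.43. The 3 lower positions in STEAP2 ran against its gene total and had 24 to 47 AlkAniline-Seq reads each. The split between higher and lower rested on which library was in the test. Without shscramble replicates 1, 2 and 3 in turn, 2, 0 and 1 member positions were higher and 20, 82 and 107 lower. Without shMETTL1 replicates 1, 2 and 3 in turn, 17, 12 and 21 were higher and 16, 15 and 14 lower. Over all genes, the 822 higher and 4229 lower positions became 681 to 802 and 5644 to 31454 without a shscramble replicate, and 4007 to 4575 and 4065 to 4171 without a shMETTL1 replicate.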

How the data were processed

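For every position, the authors deposited the count of reads at it, the coverage, their quotient as a fraction, and its ratio to the input's fraction (the fold). Where the input's fraction was 0, the deposited fold was the fraction plus 1, or 0 if the fraction was 0 too. Such a fold is not a ratio and is at most 2. Tools credited to the submitters' processing notes are cutadapt 1.9.1, Bowtie2 2.2.4 and bedtools 2.24, with build hg19. What each tool did, which reads were removed and which annotation was used is not given in the sources used here. Deposited counts were summed per gene ID and library, and edgeR 4.0.16 (R 4.3.3) was run with TMM scaling, its quasi-likelihood test, a minimum count of 10 and total of 15, and Benjamini-Hochberg adjustment over all genes. SE is the fold change over the root of its F. DESeq2 1.42.0 was an alternative, limma 3.58.1 tested percents of coverage, and CPM follow TMM within an assay. Scripts were tested on simulated data. The members, lists and rules were chosen with earlier results of these data known. Named genes had an unadjusted p below 0.05 in the AlkAniline-Seq, input, interaction or share test, had the most reads of their role group, or were TMPRSS2, FKBP5, NDRG1 or PPAP2A. The alternatives were other scaling, filters, tools, a replicate block, and each replicate left out in turn.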

Additional observations from a re-analysis of the deposited data

How the results depend on the processing

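Counts of genes at an adjusted p below 0.05 over all genes depended on the settings. In AlkAniline-Seq (1 gene in edgeR) DESeq2 gave 175, library size alone 2, no filter 19, at least 10 reads in every library 3, leaving out the deepest position of each gene 0, and 0 to 3 when a replicate was left out. In the input (0 genes) DESeq2 gave 31 and no filter 95. For the interaction (1 gene) DESeq2 gave 96, no filter 31, leaving out the deepest position 0, and 0 to 1 without a replicate. For AlkAniline-Seq against input in shscramble (82 genes) the same settings gave 569, 266 and 2, at least 10 reads gave 126, and leaving out a replicate 17 to 75. In shMETTL1 (27 genes) they gave 110, 104 and 0, at least 10 reads gave 103, library size alone 57, and leaving out a replicate 1 to 82. The cause of these differences was not tested. For the share of coverage it stayed at 0 in all alternatives run.

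Among the members at an unadjusted p below 0.05, the 1 of AlkAniline-Seq became 3 with DESeq2 or no filter, 2 with library size alone or without the deepest positions, and 2 to 5 without a replicate. The 4 of the input became 1 to 5 without a replicate, and the 5 of the interaction became 3 with library size alone, without the deepest positions or with each sample as a block, 0 with at least 10 reads in every library, which left 14 members, and 1 to 6 without a replicate. At an adjusted p below 0.05, STEAP2 was called in AlkAniline-Seq by DESeq2 (0.0294), ABCC4 in the input without a filter (0.0155), and ACPP against input in shscramble by DESeq2 and without a filter.

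The 11 member calls at an unadjusted p below 0.05 in AlkAniline-Seq, the input, the interaction and the share were recomputed 131 times and stayed below it in 91 and not in 40. STEAP2 in AlkAniline-Seq was the 1 call that stayed below it in all its alternatives. Of 285 single-gene values recomputed for 24 results, 22 changed sign, all 22 for AlkAniline-Seq log2 fold changes of ABCC4, CREB3L4, FKBP5, FOLH1, NDRG1, SORD and STEAP1. Without the deepest positions ABCC4 was at -1.18, CREB3L4 at -0.017 and SORD at 0.13. With library size alone CREB3L4 was at -0.021 and STEAP1 at -0.0030, with at least 10 reads in every library they were at -0.026 and -0.00050, and without a filter SORD was at 0.055. Without a replicate the log2 fold change ran from -0.25 to 0.54 for ABCC4, -0.30 to 0.41 for CREB3L4, -1.70 to 0.050 for FKBP5, -0.027 to 0.30 for FOLH1, -1.89 to 0.60 for NDRG1, -0.27 to 0.20 for SORD and -0.23 to 0.32 for STEAP1.

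The 5051 positions past the position thresholds became 6446 to 32135 without a replicate, and the 19 of the members 22 to 108. The labels do not say whether replicate numbers pair the samples. Between groups, deviations from the group mean of same-numbered libraries correlated at 0.0054 to 0.021 in AlkAniline-Seq and -0.0012 to 0.056 in the input. Differently numbered libraries were at -0.030 to 0.015 and -0.048 to 0.018. With replicates this far apart, such values cannot decide whether the numbers pair the samples. With the replicate number as a block, 3 genes were called in AlkAniline-Seq, 2 in the input, 0 for the interaction and 45 against input in shMETTL1, 2 members had an unadjusted p below 0.05 in AlkAniline-Seq, and 15 member positions passed the thresholds. Low counts limit every value: 17 of 36 members lacked the coverage for the share test, and 61.1% of read member positions were read in 1 library.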
